A study of Mus musculus with 21 samples.

Results

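The miR-338 and miR-219a miRNAs were followed through the development of 2 mouse auditory organs, the cochlea and the superior olivary complex (SOC), a group of auditory brainstem nuclei. The mature miRNAs mmu-miR-338-3p, mmu-miR-338-5p, mmu-miR-219a-5p, mmu-miR-219a-1-3p and mmu-miR-219a-2-3p, written here without the species prefix, were chosen by name as known myelination miRNAs together with the other arms of their hairpins. Counts for 4 of these 5, of 1647 miRNAs in all, were analysed, and miR-219a-5p was not analysed here. The 21 small-RNA libraries came from untreated wild-type mice, C57BL/6JOlaHsd for the cochlea and C57Bl6/J for the SOC, at embryonic day 16 (E16), the day of birth (P0) and postnatal day 16 (P16). In this order of ages the cochlea, labelled as inner ear sensory epithelium, gave 2, 4 and 4 libraries, and the SOC, labelled as neuronal, gave 4, 4 and 3. Tissue of several animals was pooled for each sample, so the spread between libraries is that between pools.

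A miRNA hairpin gives rise to a 5p and a 3p arm, which pair with target mRNAs mainly through the seed, bases 2 to 8, and lower their translation or stability. miR-338 and miR-219 are enriched in oligodendrocytes, the myelin-forming glia of the central nervous system. They are known to promote the differentiation of oligodendrocyte precursors by repressing genes that keep these cells immature. Myelin forms mainly after birth, from oligodendrocytes in the brainstem and from Schwann cells around the peripheral fibres of spiral ganglion neurons.

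The mature sequences of the members are given with the seed in capitals, since the seed shows which arms could share targets. They are RefSeq sequences on GRCm38.p6, the patch release of the mm10 build, and 4 of the 5 members matched an entry. miR-219a-2-3p had none.
miR-338-3p: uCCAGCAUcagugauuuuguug
miR-338-5p: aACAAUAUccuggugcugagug
miR-219a-5p: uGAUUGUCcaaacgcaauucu
miR-219a-1-3p: aGAGUUGCgucuggacgucccg
The 4 seeds differed from each other, and each was shared with 0 other mature miRNAs of the same RefSeq table.

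miR-338-3p (chr11:120014781-120014802) and miR-338-5p (chr11:120014816-120014837) are both cut from the hairpin Mir338 on the minus strand. In the GENCODE vM21 annotation this hairpin lies within an intron of Aatk, a gene for a neuronal kinase, on the same strand. miR-219a comes from 2 hairpins, both on the minus strand. Mir219a-1 (chr17:34024983-34025092) overlaps an exon of the long noncoding RNA Gm26940 and lies 303 bases from Ring1, the nearest protein-coding gene. Mir219a-2 (chr2:29845631-29845727) overlaps no other gene except miRNA entries and lies 629 bases from Urm1. The hairpins are shown with their listed arms in capitals, because the miR-219a loci share a 5p arm but are told apart by their 3p arms. The 3p arm of Mir219a-2 had no RefSeq entry and is not marked.
Mir338: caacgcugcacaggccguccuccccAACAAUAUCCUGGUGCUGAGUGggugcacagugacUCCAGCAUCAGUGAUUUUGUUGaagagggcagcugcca
Mir219a-1: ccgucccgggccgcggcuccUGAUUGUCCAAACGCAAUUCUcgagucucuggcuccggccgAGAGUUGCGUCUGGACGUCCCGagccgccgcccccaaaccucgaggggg
Mir219a-2: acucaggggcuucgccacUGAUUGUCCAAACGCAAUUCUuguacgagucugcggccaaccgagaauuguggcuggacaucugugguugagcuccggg
The Mir219a-1 and Mir219a-2 hairpins were identical at 72 of 114 aligned positions (63.2%), and their longest identical run was 22 bases, which covers the shared 5p arm.

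Library totals were 8309669 to 18053698 counts in the SOC and 124400 to 447419 in the cochlea, so that 1 count stood for 0.0854 CPM (counts scaled to a common library size) in the median SOC library and for 5.08 CPM in the median cochlea library. Levels are CPM scaled by edgeR's trimmed mean of M-values (TMM). Each organ came from its own substrain and was prepared with its own RNA and library kits, and organ, substrain and kit cannot be told apart, so the organs are compared only through their changes over time. Arms are captured with unequal efficiency, so levels are compared within a miRNA and not between miRNAs. The SOC libraries fell into 3 sets defined from their counts: set A, in which miR-99b-5p took more than 10% of the counts (replicates 2 and 3 of E16 and of P0), set C, in which miR-191-5p took less than 1% (replicate 4 of P0, replicates 2 and 3 of P16) and set B (the rest). Of 694 miRNAs tested in the SOC, 381 differed between sets C and B at an FDR under 0.05 with age in the model. The sets were drawn from the same counts and set C held no E16 library. The FDRs of set differences and of fits with the set as a covariate, here and below, are therefore descriptive. Markers of neurons summed to 38817 to 119285 CPM in the SOC at E16 and to 26763 to 43781 CPM at P16. Of these 5 miRNAs, 1 was called higher and 1 lower, with log2 changes from -2.11 (miR-9-3p) to 2.58 (miR-124-3p). Markers of hair cells summed to 52324 to 55846 CPM in the cochlea at E16 and to 16684 to 38389 CPM at P16 (0 of 3 called). The same 3 hair cell miRNAs also summed to 85032 to 164652 CPM in the SOC at E16 and fell to 521 to 3501 CPM at P16 (3 of 3 called lower). Epithelium markers went from 741 to 1554 CPM to 20.1 to 135.0 CPM (2 of 3 tested called lower) and muscle markers from 113 to 292 CPM to 9.01 to 24.2 CPM (1 of 2). The part of these changes in the results below was not tested. In bulk tissue, fewer cells of a type and less RNA per cell cannot be told apart.

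In the SOC, both arms of miR-338 and the miR-219a-2 3p arm were higher at P16 than at E16 and P0, and the miR-219a-1 3p arm was lower. A miRNA was called changed if its FDR was below 0.05, it differed by more than 1.5-fold and the libraries of both time points did not overlap. At P16 vs E16, 4 of 4 members were called, 3 higher and 1 lower, where 41.2% of all tested miRNAs were called (21.2% higher, 20% lower). The median log2 change was 3.68 for the members and 0.08 for all miRNAs. At P16 vs P0 again 4 of 4 were called, 3 higher and 1 lower, where 16.1% of all were called (8.07% in each direction). The median log2 change was 3.41 for the members and -0.15 for all.

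miR-338-3p, the arm best known from oligodendrocytes, was measured at 74.3, 47.5, 90.1 and 25.5 CPM in the SOC libraries of E16, at 213, 162, 127 and 51.2 CPM at P0 and at 1959, 403 and 598 CPM at P16. Every P16 library lay above every earlier one, while P0 and E16 overlapped through P0 replicate 4. Its log2 fold change was 4.05 at P16 vs E16 (SE 0.684, FDR 8.40e-04 from edgeR's quasi-likelihood test) and 2.84 at P16 vs P0 (SE 0.654, FDR 0.0129). Of the P16 libraries, the one in set B had the highest value and the pair in set C the lower ones. Set C was lower than set B by a log2 difference of -1.83 (SE 0.402, FDR 0.00150) for this arm. With the set as a covariate the P16 vs E16 change was 4.95 (FDR 1.25e-06), without set C it was 5.02, and without P16 replicate 1 it was 3.22. Within set B the level was 74.3 and 25.5 CPM in the E16 libraries, 213 CPM in the P0 library and 1959 CPM in the P16 library.

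miR-338-5p, the other arm of the same hairpin, was at 15.2, 12.7, 14.4 and 57.1 CPM at E16, at 40.6, 24.6, 55.8 and 47.3 CPM at P0 and at 1371, 1027 and 2205 CPM at P16. E16 replicate 4 stood above the other E16 libraries and above each P0 library, and the P16 libraries did not overlap with either earlier group. The log2 fold change was 5.95 at P16 vs E16 (SE 0.660, FDR 1.21e-04) and 5.19 at P16 vs P0 (SE 0.638, FDR 4.57e-04). Of the 694 tested miRNAs, this arm had the 4th highest increase at P16 vs E16 and the 3rd highest at P16 vs P0. Without E16 replicate 4 the P16 vs E16 change was 6.76. For this arm the difference between sets C and B was -0.05 (SE 0.528, FDR 0.953).

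miR-219a-2-3p, made from the hairpin on chromosome 2, was at 322, 328, 340.1 and 410.0 CPM at E16, at 222, 259, 265 and 122 CPM at P0 and at 5788, 2170.0 and 2374 CPM at P16. The order of the groups was P0, E16 and P16, and no 2 groups overlapped. At P16 vs E16 the log2 fold change was 3.30 (SE 0.452, FDR 2.48e-04) and at P16 vs P0 it was 3.99 (SE 0.464, FDR 3.53e-04). Set C was lower than set B here as well, by a log2 difference of -1.19 (SE 0.216, FDR 3.51e-04), and the set B library was again the highest at P16. With the set as a covariate the P16 vs E16 change was 3.93 (FDR 3.14e-08).

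miR-219a-1-3p, from the hairpin on chromosome 17, went the other way. Its levels were 24.9, 27.2, 28.0 and 31.2 CPM at E16, 13.9, 19.0, 18.7 and 19.9 CPM at P0 and 4.04, 3.18 and 4.31 CPM at P16. The 3 groups did not overlap, and the P16 libraries held 30 to 45 counts. The log2 fold change was -2.85 at P16 vs E16 (SE 0.366, FDR 1.69e-04) and -2.21 at P16 vs P0 (SE 0.356, FDR 0.00227). Sets C and B differed by a log2 of 0.12 (SE 0.286, FDR 0.749). After random thinning of SOC libraries to the depth of the cochlea this decrease was no longer called (-2.10, FDR 0.200 and -1.60, FDR 0.404), whereas the 3 increases were.

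For each of the 4 members, an exact two-sided permutation test of the SOC libraries at P16 vs E16 gave p = 0.0286, the smallest that 4 against 3 libraries allow.

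**Figure D1:**
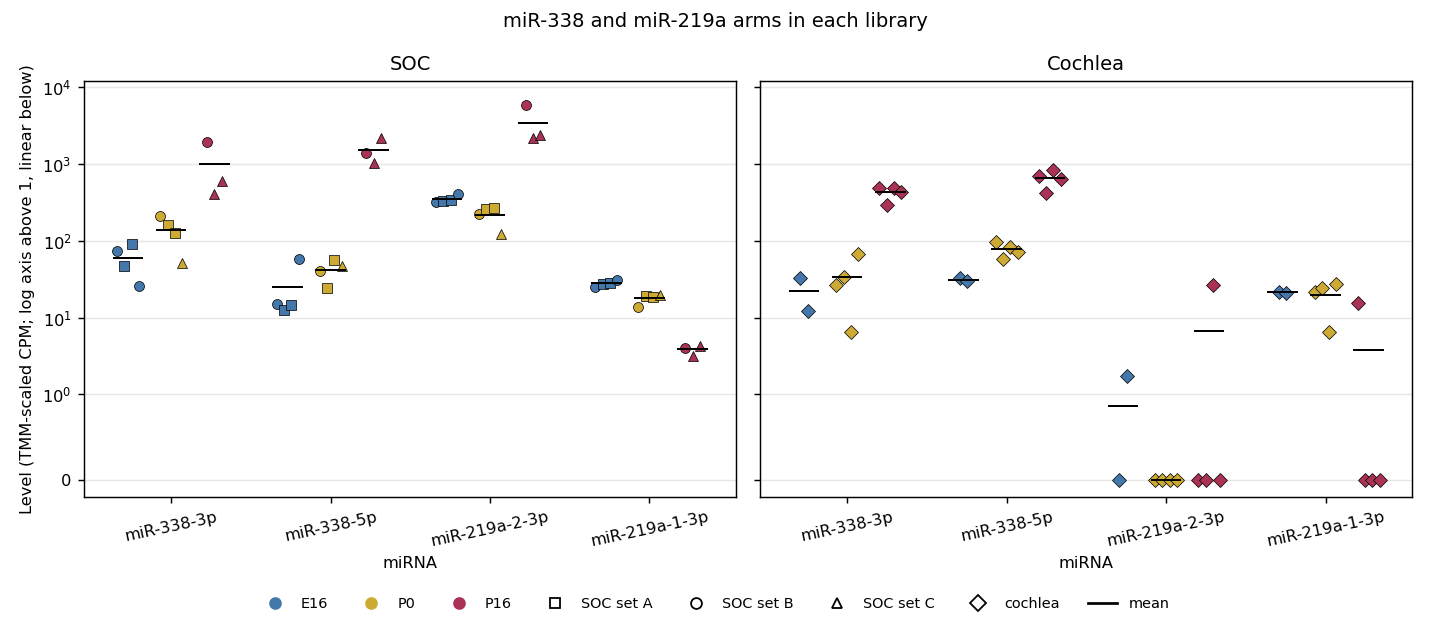
Level of each member in every library (TMM-scaled CPM, log axis above 1 and linear below), by organ and time point; each point is a library, its shape the SOC library set, and the bar the group mean. In the SOC the P16 libraries stand apart for all 4 members, above the earlier ones for miR-338-3p, miR-338-5p and miR-219a-2-3p and below them for miR-219a-1-3p; in the cochlea the P16 libraries stand apart upward for both miR-338 arms.

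At P0 vs E16, 0 of 4 members were called in the SOC by edgeR, where 6.63% of all tested miRNAs were called (2.45% higher, 4.18% lower). None had an unadjusted p under 0.05, and DESeq2 called 1. The log2 fold changes were 1.22 for miR-338-3p (SE 0.598, FDR 0.243), 0.76 for miR-338-5p (SE 0.528, FDR 0.438), -0.64 for miR-219a-1-3p (SE 0.304, FDR 0.233) and -0.69 for miR-219a-2-3p (SE 0.403, FDR 0.351). Both miR-219a 3p arms were lower in every P0 library than in every E16 library, while both miR-338 arms overlapped. The share of all tested miRNAs without such overlap is not given here, so this separation is a description only. The calls depended on the setting. miR-219a-1-3p was called with DESeq2 (-0.64, FDR 0.0495) and with the set as a covariate (-0.68, FDR 0.0437), and miR-338-3p without set C (1.58, FDR 0.0192). With the set as a covariate miR-338-3p also passed the FDR (1.52, FDR 0.00464) but was not called, since its groups overlapped. Between P0 and E16 libraries of the same replicate number, which the labels do not link, miR-338-3p was higher at P0 in 4 of 4 pairs. With the replicate number as a block its change was 1.18 (FDR 0.118 with edgeR, 0.0384 with DESeq2), again not called for the overlap.

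In the cochlea, both arms of miR-338 were also higher at P16, and the 3p arms of miR-219a were at a few counts or none. At P16 vs E16, 2 of 3 tested members were called, both higher, where 29.5% of all 896 tested miRNAs were called (10.8% higher, 18.6% lower). At P16 vs P0 again 2 of 3 were called higher, where 10.5% of all were called (3.91% higher, 6.58% lower). The medians of the 3 members, 4.27 and 3.07, stood beside -0.09 and 0.05 for all miRNAs. At P0 vs E16, 0 of 3 were called by edgeR, where 24.4% of all were called (7.81% higher, 16.6% lower). One member had an unadjusted p under 0.05, and DESeq2 called 1.

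miR-338-3p was at 32.7 and 12.2 CPM in the cochlea libraries of E16, at 26.7, 34.1, 6.42 and 66.5 CPM at P0 and at 489.7, 296, 485 and 431 CPM at P16. These values rest on 7 and 12 counts at E16, 1 to 12 at P0 and 38 to 96 at P16. All P16 libraries lay above all earlier ones, while E16 and P0 overlapped. The log2 fold change was 4.27 at P16 vs E16 (SE 0.650, FDR 1.38e-09), 3.63 at P16 vs P0 (SE 0.491, FDR 1.35e-11) and 0.64 at P0 vs E16 (SE 0.635, FDR 0.467).

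miR-338-5p was at 32.7 and 29.5 CPM at E16, at 96.3, 58.4, 83.5 and 72.0 CPM at P0 and at 699, 420.2, 843 and 639 CPM at P16. The 3 groups followed each other without overlap. The log2 fold change was 4.37 at P16 vs E16 (SE 0.602, FDR 1.38e-11), 3.07 at P16 vs P0 (SE 0.429, FDR 6.60e-11) and 1.30 at P0 vs E16 (SE 0.556, FDR 0.0679). The P0 change was called with DESeq2 (FDR 0.0311) and under the filter of 10 counts in every library (1.38, FDR 0.0140). With library totals in place of TMM, the median change of all miRNAs shifted by -0.50 at P16 vs E16 and by -0.38 at P0 vs E16. miR-338-5p was then at 3.94 and 0.85, and miR-338-3p at P16 vs E16 at 3.83.

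miR-219a-1-3p was counted 8 and 12 times in the E16 cochlea libraries, 4, 5, 1 and 5 times at P0 and 3, 0, 0 and 0 times at P16. These counts correspond to 21.8 and 20.8 CPM at E16 and to 6.42 to 27.7 CPM at P0. At P16 every library was at or under 3 counts, the upper limit that a count of 0 allows, which is 15.3 to 23.3 CPM at this depth. The mean level at E16, 21.3 CPM, was close to this limit averaged over the 4 P16 libraries (20.2 CPM). A bound on the decrease is not given, since replicate 1 held 3 counts and the limit applies to a count of 0. The log2 fold change from edgeR at P16 vs E16 was -2.07 and was not called. The limit of the shallowest P16 library lay above both E16 levels. miR-219a-2-3p had 0 and 1 counts at E16, 0 counts in all 4 libraries at P0, and 0, 0, 4 and 0 counts at P16. It did not pass the filter for testing, and no fold change is given. The limit of 3 counts equals 5.21 to 8.17 CPM at E16 and 14.6 to 19.3 CPM at P0. The SOC libraries, deeper and prepared with other kits, held 1053 to 61540 counts of the same arm, and these counts are not compared between the organs.

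An exact two-sided permutation test of the cochlea at P16 vs E16 cannot go below 0.0667 with 2 libraries against 4. Both miR-338 arms reached this value, and at P16 vs P0 they reached 0.0286, the smallest for 4 against 4. The summed level of muscle markers was also higher in the cochlea at P16, with 474 to 549 CPM at E16 and 1097 to 4295 CPM at P16 (1 of 2 tested called higher). This sum followed miR-1a-3p, whose mean was 455 CPM at E16 and 2857 CPM at P16. The mean of miR-206-3p was 55.9 and 52.1 CPM, and miR-133a-3p was at 0 CPM at both ages. The neuron list fell from 3999.5 to 4493 CPM at E16 to 1128 to 1593 CPM at P16 (4 of 5 called lower), the mesenchyme list from 46218 to 49591 CPM to 11648 to 17921 CPM (1 of 3) and the epithelium list from 13901 to 21792 CPM to 2451 to 6795 CPM (2 of 6). Within the mesenchyme list the mean of miR-214-3p went from 45137 CPM at E16 to 11113 CPM at P16. miR-140-3p was at 832 and 807 CPM, and miR-143-3p at 1935 and 2849 CPM. The epithelium sum followed miR-429-3p (log2 change -2.09), since the other means at E16 lay between 20.7 and 2555 CPM. The mean of miR-200c-3p was 2555 CPM at E16 and 1236 CPM at P16, and that of miR-205-5p was 216 and 215 CPM. The part of these changes in the miR-338 values was not tested.

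**Figure D2:**
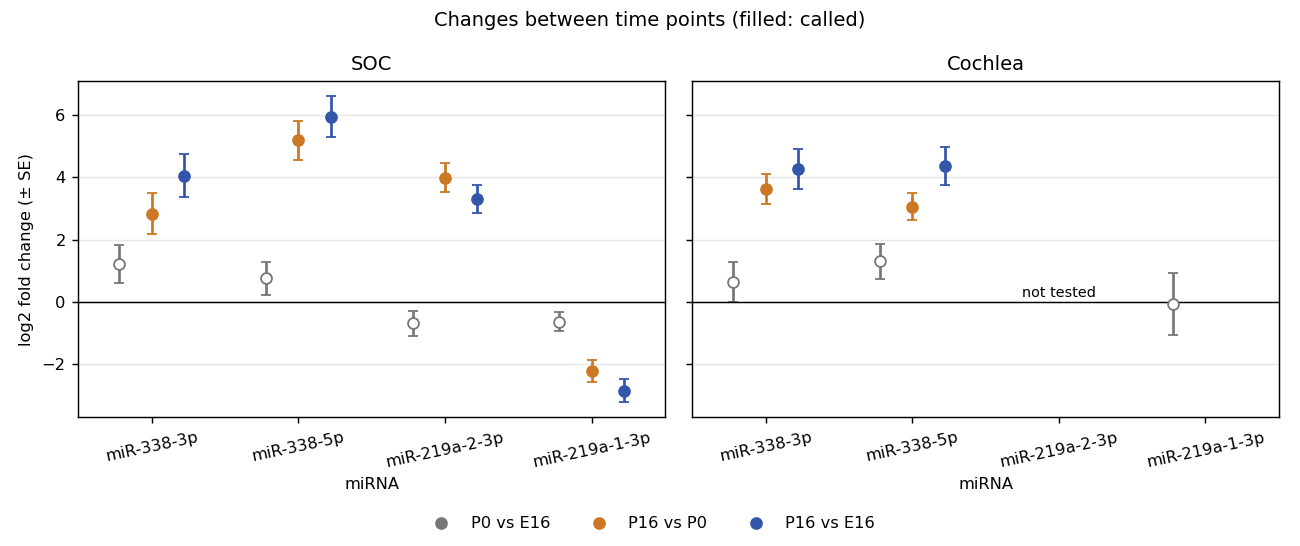
Log2 fold change (± SE from edgeR) of each member between time points in the SOC and the cochlea; filled symbols were called. The P16 contrasts of both miR-338 arms lie between 2.84 and 5.95 in both organs, miR-219a-2-3p and miR-219a-1-3p lie on opposite sides of 0 in the SOC, and cochlea contrasts with a group at or under 3 counts are left out.

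The change of the SOC was then compared with that of the cochlea in one edgeR model of all 21 libraries, over the 545 miRNAs tested in both organs. No member of the 3 tested passed an FDR of 0.05, where 11.9% of all miRNAs did at P0 vs E16, 16.9% at P16 vs E16 and 6.42% at P16 vs P0. At an unadjusted p under 0.05 the counts were 0, 0 and 1. For miR-338-3p the difference, SOC minus cochlea, was -0.39 at P16 vs E16 (SE 0.964, FDR 0.828) and -0.95 at P16 vs P0 (SE 0.872, FDR 0.518). The sign of the former turned with library totals (0.20), with the set as a covariate (0.37) and without cochlea E16 replicate 2 (0.52).

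For miR-338-5p the difference was 1.49 at P16 vs E16 (SE 0.753, FDR 0.175) and 2.09 at P16 vs P0 (SE 0.675, FDR 0.0605). The latter was past the threshold with DESeq2 (1.95, FDR 0.0324), with the replicate number as a block (2.35, FDR 0.0259), and without SOC E16 replicate 4, SOC P0 replicate 4 or SOC P16 replicate 1 (2.09, 2.14 and 2.202). Without SOC E16 replicate 4 the difference at P16 vs E16 was also past it (2.197, FDR 0.0257). A larger rise of miR-338-5p in the SOC than in the cochlea thus depended on the model and on single libraries. miR-219a-2-3p was not tested in the cochlea, so its organ difference was not tested.

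The 2 arms of miR-338 can be compared within a library, where their ratio does not depend on the scaling. In the SOC, the miR-338-5p share of the counts of both arms was 17.02%, 21.1%, 13.8% and 69.1% in the E16 libraries, 16.02%, 13.2%, 30.6% and 48.1% at P0 and 41.2%, 71.8% and 78.7% at P16. The highest E16 share, in replicate 4, had a 95% Wilson interval of 66.1% to 71.9%, and that of P16 replicate 1 was 40.7% to 41.7%. Intervals and limits of this kind cover counting error only. The P16 libraries lay above the E16 and P0 libraries except E16 replicate 4 and P0 replicate 4, so the groups overlapped. On the scale of the log2 ratio of 5p to 3p counts, P16 differed from E16 by 2.32 (exact two-sided permutation test, p = 0.114, Benjamini-Hochberg adjusted over 9 ratio tests 0.257) and from P0 by 2.50 (exact permutation p = 0.0857, adjusted 0.257). A difference in arm use was therefore not shown beyond the spread between libraries. The P16 and P0 libraries of set C had the highest shares of their time points, and without set C the difference between P16 and E16 was 0.90.

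In the cochlea the miR-338-5p share was 50.0% and 70.8% at E16, 78.3%, 63.2%, 92.9% and 52.0% at P0 and 58.8%, 58.7%, 63.5% and 59.7% at P16. The P16 libraries were close to each other, with a mean of 60.2% ± 2.26 (SD, n = 4), and lay within the range of both earlier groups. The earlier libraries held 14 to 25 counts of both arms together, and the Wilson interval of the lowest share reached from 31.4% to 68.6%. The log2 ratio at P16 differed from that at E16 by -0.02 (exact permutation p = 1.0) and from that at P0 by -0.85 (exact permutation p = 0.343, adjusted 0.617).

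The miR-219a loci were compared through their 3p arms, since the 5p arm does not tell them apart. In the SOC, miR-219a-1-3p made up 7.18%, 7.66%, 7.60% and 7.07% of the counts of both 3p arms at E16, 5.91%, 6.84%, 6.59% and 14.0% at P0 and 0.0698%, 0.146% and 0.181% at P16. Every P16 library lay below every earlier library. The log2 ratio differed by -6.00 between P16 and E16 and by -6.10 between P16 and P0. Each exact two-sided permutation p was 0.0286, the smallest that 4 against 3 libraries allow, and 0.129 after adjustment over the 9 tests. P0 and E16 differed by 0.10 (exact permutation p = 1.0). Without set C, the difference between P16 and E16 was -6.82. In the cochlea the 3p arms together held under 10 counts in most libraries, and this share was not tested there.

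**Figure D3:**
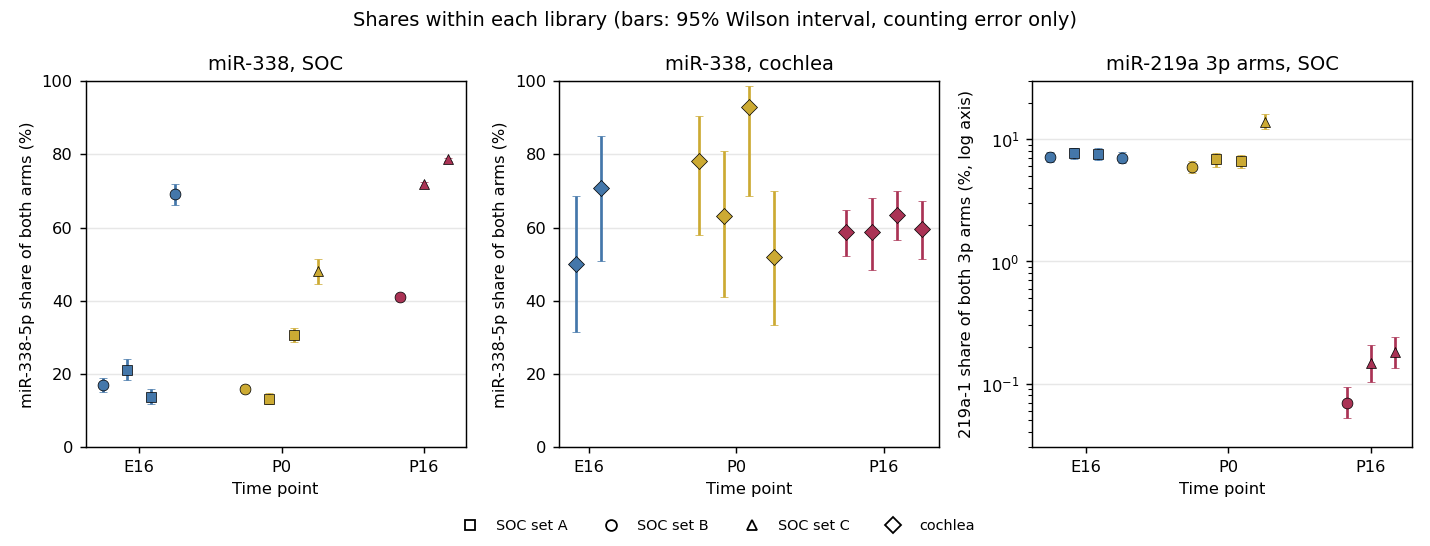
Share of miR-338-5p in the counts of both miR-338 arms (%, SOC and cochlea) and share of miR-219a-1-3p in the counts of both miR-219a 3p arms (%, log axis, SOC), by time point; each point is a library, its shape the SOC library set, and bars are 95% Wilson intervals. The miR-338-5p share at P16 overlaps the earlier SOC libraries through E16 replicate 4 (69.1%) and P0 replicate 4 (48.1%), whereas the miR-219a-1-3p share is under 0.2% at P16 and over 5% before.

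Each of the 3 hairpins has a miRNA gene on the opposite strand, and the sequences of these miRNAs are shown because their arms are nearly the reverse complement of the members.
miR-3065-5p: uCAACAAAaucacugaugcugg
miR-219b-5p: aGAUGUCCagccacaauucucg
miR-219b-3p: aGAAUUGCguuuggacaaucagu
miR-219c-5p: gGACGUCCagacgcaacucucg
miR-219c-3p: cGAGAAUUgcguuuggacaauc
miR-3065-5p and miR-338-3p share a run of 21 bases as reverse complements, miR-219a-5p shares 21 with miR-219b-3p and 20 with miR-219c-3p, and miR-219a-1-3p shares 20 with miR-219c-5p. miR-3065-3p and miR-219a-2-3p had no RefSeq sequence, so their runs with miR-338-5p and miR-219b-5p were not computed. The strand used in counting was not given in the sources used here, and without it reads of opposite arms cannot be told apart. This holds for these pairs as well. SOC P16 replicate 1 held 1881 counts of miR-3065-3p and 14572 of miR-338-5p, and 3106 of miR-219b-5p and 61540 of miR-219a-2-3p. SOC P16 replicate 1 held 126 counts of miR-3065-5p and 20823 of miR-338-3p, and miR-3065-5p had 0 counts in all 10 cochlea libraries, where miR-338-3p had 38 to 96 counts at P16 and 1 to 12 before.

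In the SOC, 4 of 4 tested opposite-strand miRNAs were called higher at P16 vs E16 (21.2% of all miRNAs were), 3 of 4 at P16 vs P0 (8.07% of all) and 0 of 4 at P0 vs E16, where 0 had an unadjusted p under 0.05. miR-3065-3p, encoded opposite miR-338, was at 6.21, 5.94, 9.39 and 11.03 CPM at E16, at 15.8, 9.44, 9.32 and 20.7 CPM at P0 and at 177, 156 and 183 CPM at P16. Its P16 libraries stood apart from all earlier ones, with a log2 fold change of 4.40 at P16 vs E16 (SE 0.438, FDR 9.35e-05) and 3.64 at P16 vs P0 (SE 0.425, FDR 3.53e-04). miR-219b-5p, encoded opposite miR-219a-2, was at 23.1, 16.6, 12.9 and 21.9 CPM at E16, at 10.6, 14.3, 8.93 and 9.42 CPM at P0 and at 292, 139 and 170.1 CPM at P16. As for miR-219a-2-3p, the set B library was the highest at P16, and the change was 3.43 at P16 vs E16 (SE 0.407, FDR 1.26e-04) and 4.21 at P16 vs P0 (SE 0.420, FDR 1.88e-04).

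miR-3065-5p was at 0.174 to 1.70 CPM at E16, 0.349 to 2.68 at P0 and 4.24 to 11.9 at P16, and was called at P16 vs E16 (2.96, SE 0.805, FDR 0.0118) but not at P16 vs P0 (2.37, SE 0.787, FDR 0.0538). miR-219c-3p, encoded opposite miR-219a-1, was at 0.521 to 4.01 CPM at E16, 0.233 to 3.42 at P0 and 7.31 to 17.7 at P16, and its change was 2.73 at P16 vs E16 (SE 0.787, FDR 0.0157) and 3.10 at P16 vs P0 (SE 0.799, FDR 0.0214). It shares a run of 20 bases with miR-219b-3p, so its reads cannot be assigned to one locus with certainty. miR-219b-3p and miR-219c-5p reached at most 15 and 11 counts in a SOC library and were not tested. In the cochlea 1 of 2 tested opposite-strand miRNAs was called, with miR-3065-3p at 8.17 and 12.2 CPM at E16, at 21.4, 39.0, 0 and 5.54 CPM at P0 and at 117, 101, 79.7 and 89.2 CPM at P16. Its log2 fold change was 3.16 at P16 vs E16 (SE 0.850, FDR 0.00125) and 2.45 at P16 vs P0 (SE 0.682, FDR 0.00371).

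**Figure D4:**
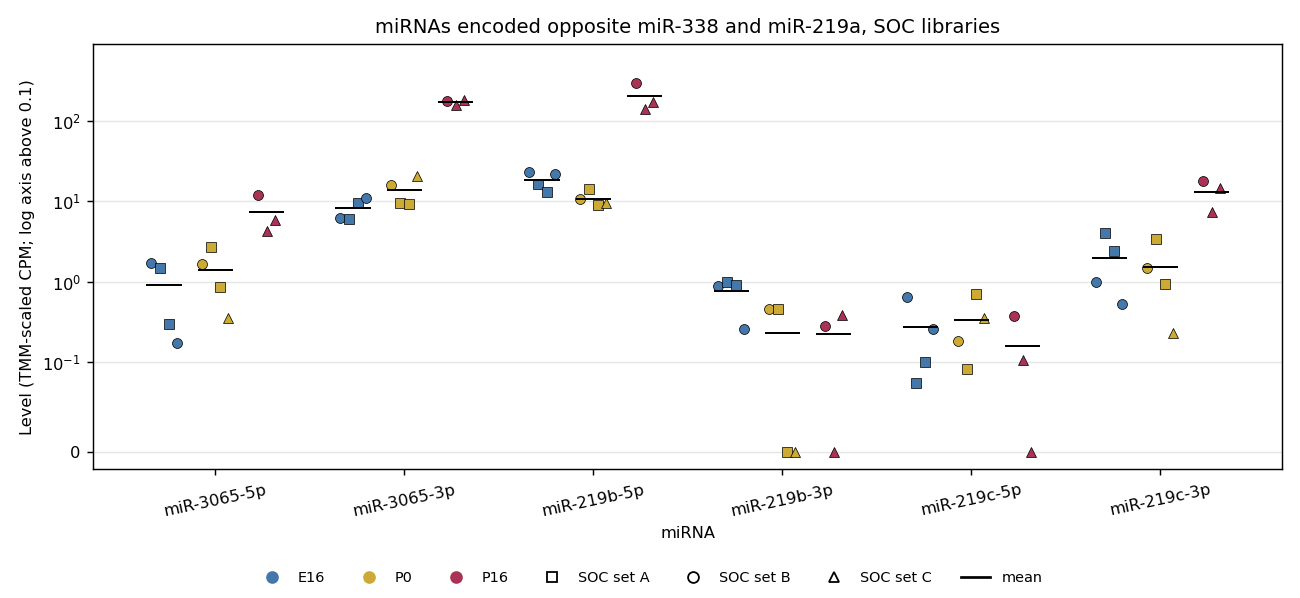
Level of the 6 miRNAs encoded opposite miR-338 and miR-219a in each SOC library (TMM-scaled CPM, log axis above 0.1 and linear below), by time point; each point is a library, its shape the library set, and the bar the group mean. The P16 libraries of miR-3065-3p (156 to 183 CPM) and miR-219b-5p (139 to 292 CPM) stand apart from the earlier ones, and miR-219b-3p and miR-219c-5p stay near or under 1 CPM.

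A list of 14 other miRNAs with a described role in oligodendrocytes, Schwann cells or myelin was examined beside the members. In the SOC 9 of them were tested, and 3 were called at P16 vs E16, 2 higher and 1 lower, where 41.2% of all miRNAs were called (21.2% higher, 20% lower), with a list median of -0.36 against 3.68 for the members. miR-138-5p, known to act in early oligodendrocyte differentiation, went from 912 to 2671 CPM at E16 to 12626 to 21437 CPM at P16 (log2 fold change 3.36, SE 0.591, FDR 0.00109). miR-212-3p was also higher (3.11, SE 0.388, FDR 1.64e-04), and miR-17-5p, a member of the proliferation-linked miR-17-92 cluster, was lower (-1.55, SE 0.445, FDR 0.0156). At P16 vs P0, where 16.1% of all were called, 2 of 9 were, miR-138-5p (1.87, FDR 0.0398) and miR-212-3p (2.07, FDR 0.00493), both higher. At P0 vs E16, where 6.63% of all were called, 0 of 9 were by edgeR, and 3 had an unadjusted p under 0.05.

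In the cochlea 13 of the 14 were tested. At P16 vs E16, where 29.5% of all miRNAs were called, 2 of these 13 were called higher, among them miR-138-5p (1.87, SE 0.671, FDR 0.0203), and 4 lower, among them miR-17-5p (-3.49, SE 0.695, FDR 5.82e-06). At P0 vs E16, where 24.4% of all were called, 1 was higher and 5 were lower. At P16 vs P0, where 10.5% of all were called, miR-138-5p alone was called (2.46, SE 0.585, FDR 3.87e-04). The list medians were -0.17 at P16 vs E16 and 0.50 at P16 vs P0, against 4.27 and 3.07 for the members.

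The miRNAs whose levels followed the members most closely were found by Pearson's r of log2 levels among tested miRNAs whose mean reached 100 CPM at one or more time points. These correlations are descriptions over libraries that share the time course and, in the SOC, the library sets. Over the 11 SOC libraries and 209 candidates, the closest to miR-338-3p were miR-1843a-5p (r = 0.95), miR-330-5p and let-7b-3p (both 0.94), and miR-34a-5p and miR-412-5p (both 0.93). miR-34a-5p, a target of p53, went from a mean of 54.3 CPM at E16 to 1061 CPM at P16. For miR-219a-2-3p they were miR-330-3p (0.92), miR-330-5p (0.89), let-7b-3p (0.87), miR-3078-5p (0.86) and miR-1843b-5p (0.86). Over the 10 cochlea libraries and 296 candidates, the closest to miR-338-3p were miR-30a-3p (0.91), miR-30c-1-3p and miR-5100 (both 0.90), and miR-34a-5p and miR-1a-3p (both 0.89). miR-1a-3p is a muscle miRNA, and its mean level was 455 CPM at E16 and 2857 CPM at P16.

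Among the members themselves, the SOC correlations were 0.80 between the miR-338 arms, 0.82 and 0.88 between miR-219a-2-3p and the 3p and 5p arms of miR-338, and -0.86 between the 3p arms of miR-219a. miR-219a-2-3p followed miR-219b-5p from the opposite strand with r = 0.98, and miR-338-5p followed miR-3065-3p with 0.98. Whether the miRNAs of these pairs share reads was not tested. In the cochlea the miR-338 arms had r = 0.92.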

How the data were processed

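Small RNA was sequenced from pooled mouse tissue, with Direct-zol extraction and SMARTer smRNA-Seq libraries for the cochlea and the innuPREP miRNA kit and TruSeq Small RNA libraries for the SOC. The deposited table holds raw read counts per mature miRNA under miRBase names. The paper's methods name Bowtie and MirGeneDB-derived sequences, and the submitters' processing notes name Bowtie2 2.2.5, DESeq2 and mm10. Which of these gave the counts was not stated in the sources used here. The treatment of reads that fit several miRNAs was not given in the sources used here. The members and lists were chosen with earlier results of these data known.

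Each organ was fitted with edgeR 4.0.16 (R 4.3.3; TMM, quasi-likelihood F test, Benjamini-Hochberg FDR over all tested miRNAs) on miRNAs that exceeded 1 CPM in 2 or more libraries of any one age. A call needed FDR under 0.05, a fold over 1.5, no overlap and not both groups at or under 3 counts. The fit was tested on simulated counts with known changes. The named miRNAs are the members, those encoded opposite them, the myelin-list miRNAs called at P16 vs E16 in the SOC, and the 5 most alike. In the SOC, all 4 same-number pairs of P0 and E16 correlated (r = 0.251 to 0.490), although the labels do not say that numbers mark a shared animal or day. The other contrasts did not show this. Pairs 1, 2 and 3 also shared a library set, while pair 4 did not (0.258). Different-number pairs of one set were at 0.409 and 0.255 in set A and at -0.01 in set B. Replicate libraries differed by more than sampling noise (lowest chi-square per degree of freedom 5.95 over 28 pairs). Alternatives were DESeq2 1.42.0, other scalings and filters, thinning, library set, replicate block and leaving out libraries. Sequences came from RefSeq. miR-219a-5p counts were not analysed.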

Additional observations from a re-analysis of the deposited data

Results flagged for a closer look

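In 6 of 36 groups of 4 libraries tested, 1 library stood far from the others of its group. The rule flags about 1 in 20 groups of independent, normally distributed values. Some groups here hold mostly 0 counts and some measures share libraries, so an excess cannot be read from these numbers. In SOC E16 replicate 4, miR-338-5p was at 57.1 CPM against 12.7 to 15.2 CPM in the other E16 libraries, and the miR-338-5p share of both arms was 69.1% against 13.8% to 21.1%. In SOC P0 replicate 4, miR-219a-1-3p made up 14.0% of both miR-219a 3p arms against 5.91% to 6.84%. In the same organ at E16, miR-219b-3p was lowest in replicate 4, at 0.261 CPM against 0.879 to 1.00 CPM, which rests on 3 counts. In the cochlea at P16, miR-219a-1-3p was at 15.3 CPM (3 counts) in replicate 1 and miR-219a-2-3p at 26.6 CPM (4 counts) in replicate 3, with 0 in the other libraries of each.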

How the results depend on the processing

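The increases of both miR-338 arms and of miR-219a-2-3p in the SOC at P16 were called under every setting run. The decrease of miR-219a-1-3p was lost when counts were thinned to the cochlea depth (-2.10 and -1.60). At P0 vs E16, 1 member was called in the SOC with DESeq2, with the library set as a covariate and without set C, a setting chosen after seeing the data. In the cochlea 1 was called with DESeq2 and with 10 counts in every library, and 0 to 1 when a library was left out (1 without P16 replicate 1 or 2). With 10 counts in every library, 1 member was called at P16 vs E16 and 1 at P16 vs P0, since miR-338-3p was then not tested. The organ difference passed for 1 member at P16 vs P0 with DESeq2 and with the replicate block, and for 0 to 1 at P16 vs E16 and P16 vs P0 when a library was left out. With a library left out, the log2 ratio at P16 vs E16 ranged from 1.83 to 3.18 for the miR-338 arms and from -6.28 to -5.59 for the miR-219a loci, and without set C it was 0.90 and -6.82.

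Signs turned only for values that were not called. For miR-219a-1-3p in the cochlea at P0 vs E16 the value was 0.36 with the replicate block and 0.20 without P0 replicate 3, and with a library left out it went down to -0.23. The organ difference of miR-338-3p at P16 vs E16 was 0.20 with library totals, 0.37 with the set covariate and 0.52 without cochlea E16 replicate 2, with a lowest value of -1.29 with a library left out, and at P0 vs E16 it was between -0.21 (without cochlea E16 replicate 1) and 1.35. That of miR-338-5p at P0 vs E16 was 0.13 with 10 counts in every library and 0.11 without SOC E16 replicate 4, down to -0.81 with another library left out. That of miR-219a-1-3p at P16 vs P0 was 0.018 with the replicate block, 0.17 without cochlea P0 replicate 3 and 6.04 without cochlea P16 replicate 1, which also gave 5.37 at P16 vs E16, since all cochlea P16 libraries were then at 0 counts; the lowest values with a library left out were -0.58 and -1.26. The same omission made its cochlea change -5.35 at P16 vs E16 (FDR 0.0240) and -5.27 at P16 vs P0 (FDR 0.0487). The cause of the other changes was not tested. In the edgeR fits the replicate block changed no other call of the members. With DESeq2 and the block, a setting chosen after seeing the data, miR-219a-1-3p was no longer called in the SOC at P0 vs E16 (FDR 0.0925).

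Over all miRNAs, the SOC calls at P0 vs E16 numbered 46, and 84 with DESeq2, 82 with DESeq2 and the block, 96 with the set covariate, 98 without set C, 27 thinned and 23 at the lowest with a library left out. At P16 vs E16 they numbered 286, and 189 with 10 counts in every library and 115 thinned. At P16 vs P0 they numbered 112, and 32 thinned, 172 with DESeq2 and the block and 66 to 248 with a library left out. In the cochlea 24.4% of 896 tested miRNAs were called at P0 vs E16, which numbered 93 with 10 counts in every library and 98 in one fit of all 21 libraries. At P16 vs E16 the calls numbered 264, and 104 and 160 in these settings, and at P16 vs P0 94, and 54 and 55. With a library left out the lowest were 112 at P0 vs E16 and 167 at P16 vs E16. Ranked by Spearman's rho, 4 of the 5 miRNAs most like miR-338-3p in the SOC remained, 1 of 5 for miR-219a-2-3p and 1 of 5 for miR-338-3p in the cochlea. Cochlea E16 had 2 libraries, and with one left out the lone library is assumed to vary like the other groups. Cochlea depth limits the miR-219a arms, where 3 counts stand for up to 23.3 CPM. The planned share of the miR-219a 5p arm was not run, since miR-219a-5p was not analysed here.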
